A study of Mus musculus with 6 samples.

Results

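The 8 noncoding RNAs described here are short RNAs made by RNA polymerase III (Pol III), found in the table of counts by their gene names: *Rn7sk*, *Rn7s1*, *Rn7s2*, *Rmrp*, *Rpph1*, *Rny1*, *Rny3* and *Vaultrc5*. All 8 were in the table, among 53060 genes, and all 8 passed the filter on low counts that kept 19073 genes. They were measured by RNA-seq in neural precursor cells (NPCs) from 3 *Armc5*(-/-) (KO) and 3 wild-type (WT) cultures, which are called here KO NPC 1 to 3 and WT NPC 1 to 3. ARMC5 is the part of a ubiquitin ligase that recognizes its substrate, and the study asked what its loss does to RNA polymerase II (Pol II) and to transcription. The cells came from the ganglionic eminences of e13.5 fetuses, and in both genotypes they were cultured as neurospheres in 20 ng/ml epidermal growth factor and harvested at passage 2. The labels give the strain of every sample as 129 sv X CD1, while the study describes its mice as being on a CD1 x C57BL/6 background. *Armc5* is deleted in the whole animal, so the cultures carry the deletion from the start. Neither the sex nor the number of fetuses per culture was known here, and nothing in the labels says that cultures of the same number share a litter, so p values measure the spread between these libraries.

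Pol III makes small structured RNAs that are used as RNA and never translated. The *Rn7sk* RNA holds the elongation factor P-TEFb inactive in a particle with HEXIM and LARP7 proteins. The 7SL RNAs of *Rn7s1* and *Rn7s2* are the core of the signal recognition particle, which brings ribosomes to the endoplasmic reticulum. *Rmrp* and *Rpph1* are the RNA parts of RNase MRP, which acts on the ribosomal RNA precursor, and of RNase P, which trims the 5′ end of tRNA precursors. The Y RNAs of *Rny1* and *Rny3* bind the RO60 protein, and *Vaultrc5* is an RNA of the vault particle. The study scaled its RNA-seq to *Rn7sk* because this RNA is not a product of Pol II, so the comparison here was whether *Rn7sk* varied together with the other Pol III RNAs from library to library.

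*Rn7sk* lies at chr9:78175303-78175633 on the minus strand (GRCm38) and is annotated as a single exon of 331 bases. The study measured *Rn7sk* by RT-qPCR as well. The first 120 bases are shown because both primers fall there. The capitals mark the primer sites, at bases 32 to 53 and 92 to 113, which enclose an amplicon of 82 bases.
*Rn7sk* (bases 1 to 120): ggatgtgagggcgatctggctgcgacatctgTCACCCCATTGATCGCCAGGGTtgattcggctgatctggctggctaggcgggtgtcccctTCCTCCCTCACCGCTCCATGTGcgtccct

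The table counted these bases in more than 1 row. A read of 100 bases could fit without a mismatch in *Rn7sk* and in 3 other annotated genes, all predicted small RNA genes with no assigned role. *Gm24447* (chr15:93234363-93234700, plus strand) shares bases 1 to 241 of *Rn7sk* without a mismatch. *Gm26315* (chr2:7076094-7076414, minus strand) shares bases 5 to 239, and *Gm26035* shares bases 121 to 229. Both primer sites lie inside the stretches shared with *Gm24447* and *Gm26315*. The 3 stretches below show where these genes part from *Rn7sk*, with the end of the shared run in capitals.
*Rn7sk* (bases 201 to 300): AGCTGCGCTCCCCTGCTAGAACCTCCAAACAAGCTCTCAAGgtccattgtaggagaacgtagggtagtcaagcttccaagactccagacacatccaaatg
*Gm24447* (bases 201 to 300): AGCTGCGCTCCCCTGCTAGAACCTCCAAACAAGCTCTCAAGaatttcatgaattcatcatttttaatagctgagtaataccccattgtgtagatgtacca
*Gm26315* (bases 201 to 300): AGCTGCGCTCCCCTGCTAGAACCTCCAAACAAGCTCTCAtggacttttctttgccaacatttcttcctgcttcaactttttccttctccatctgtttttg

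**Figure D1:**
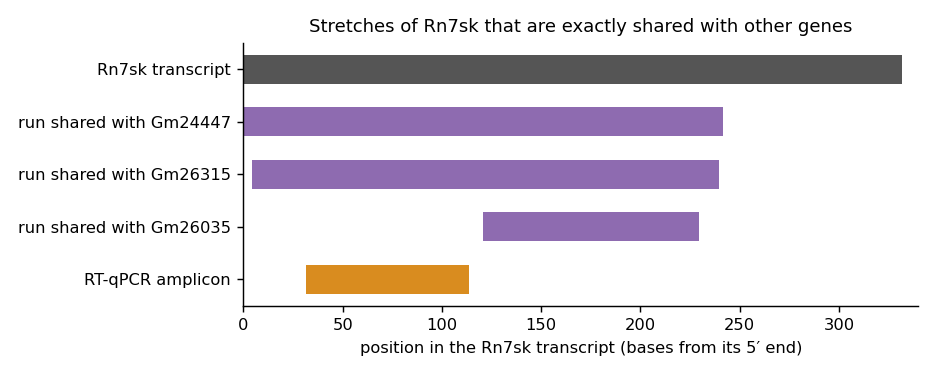
Map of the 331 bases of the *Rn7sk* transcript (x axis, bases from its 5′ end), with the longest run shared without mismatch with each of 3 other genes (purple) and the RT-qPCR amplicon (orange). The runs shared with *Gm24447* and *Gm26315* cover the amplicon, and the run shared with *Gm26035* begins after it, at base 121.

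*Gm24447* had 241046, 277676 and 204689 counts in the KO NPCs, numbered 1 to 3, and 197173, 294633 and 135498 counts in the WT NPCs in the same order. Of the summed counts of *Rn7sk* and these 3 genes, the row of *Rn7sk* held between 66.7% and 67.9% in every library. The sources used here do not say how reads that fit several places were assigned. The log2 difference, KO minus WT, was 0.26 for the sum and 0.26 for *Rn7sk* alone.

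The 7SL genes cannot be told apart by sequence. The transcripts of *Rn7s1* and *Rn7s2* are 300 bases long and the same at 300 of 300 positions, and a further 7SL gene, *Rn7s6*, holds bases 42 to 214 of them without a mismatch.

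In the table *Rn7s1* is merged with *Gm47295* and *Gm47287* (chr12:69118891-69159596, plus strand) and *Rn7s2* with *Gm47299* and *Gm47305* (chr12:69361179-69437805, minus strand). The Y RNAs, by contrast, are 2 different RNAs from neighbouring genes on opposite strands, *Rny1* at chr6:47788069-47788180 (minus) and *Rny3* at chr6:47781624-47781725 (plus). They are shown because they are barely longer than 1 read, and because both end in the run of T, in capitals, at which Pol III stops.
*Rny1*: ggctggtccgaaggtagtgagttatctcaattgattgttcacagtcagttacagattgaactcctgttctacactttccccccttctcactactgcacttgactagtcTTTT
*Rny3*: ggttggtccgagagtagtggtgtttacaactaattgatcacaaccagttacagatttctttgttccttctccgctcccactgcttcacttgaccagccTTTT

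*Rmrp* (chr4:43492783-43493063, minus strand) shares no run of 100 bases with another annotated gene, and neither do *Rny1*, *Rny3* and *Vaultrc5*. *Rpph1* is not counted on its own: its row (chr14:50789248-50807767, minus strand) is merged with the protein-coding gene *Ccnb1ip1*, whose transcript holds bases 36 to 268 of *Rpph1*. Every value of *Rpph1* below is therefore that of the merged row.

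The libraries held between 52995791 and 85170379 counts at named genes in the KO NPCs and between 66018919 and 73445736 in the WT NPCs. *Armc5*, the deleted gene, was at 1.01, 1.64 and 0.730 CPM (counts relative to the library total, here after TMM scaling) in the KO NPCs and at 31.2, 29.5 and 26.2 CPM in the WT NPCs. Of the neural progenitor genes, *Sox9* was at 354, 571 and 489.6 CPM in the KO NPCs and at 395, 437 and 342 CPM in the WT NPCs. *Vim* was at 775, 719 and 328 CPM in the KO NPCs and at 966, 795 and 921 CPM in the WT NPCs. The summed level of 6 microglia genes was at most 1.38 CPM in every library. KO NPC 3 stood apart from the other libraries. The summed level of 8 astrocyte genes was 2292 CPM in this library, against 755 to 1169 CPM in the remaining 5, and that of 6 fibroblast and meninges genes was 60.4 CPM against 1.82 to 9.05 CPM. Both libraries with the number 1 stood apart in the mitochondrial ribosomal RNA that rRNA depletion left. *mt-Rnr1* had 6812 counts in KO NPC 1 and 9390 in WT NPC 1, against 775 to 1731 in the remaining 4 libraries. The part of these differences in the values below was not tested.

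By total counts, the Pol III RNAs took between 2.01% and 3.11% of a library, and *Rn7sk* alone between 0.812% and 1.57%. *Rn7sk* was at 11376, 15315 and 15487 CPM by total counts in the KO NPCs and at 12336, 15713 and 8124 CPM in the WT NPCs. The groups overlapped: the highest and the lowest value were both in WT libraries, and WT NPC 3 had the lowest. On the log2 scale the mean was 13.77 ± 0.25 in the KO NPCs and 13.51 ± 0.48 in the WT NPCs (SD, n = 3 each). The difference of 0.26 gave p = 0.7 by a two-sided exact permutation test, in which 3 against 3 libraries cannot go below 0.1. Within the replicate numbers the differences were -0.12, -0.04 and 0.93, so that only in number 3 was the KO library the higher one. Without WT NPC 3 the difference was -1.02e-04, and without WT NPC 2 it was 0.48. In these bulk libraries fewer cells of a type and less RNA per cell cannot be told apart.

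*Rn7s1* was at 3728, 2779 and 2873 CPM in the KO NPCs and at 3424, 3526 and 3392 CPM in the WT NPCs. The WT libraries were close together and KO NPC 1 was above all of them, while KO NPC 2 and 3 were below. *Rn7s2* followed *Rn7s1* in every library, at a ratio of *Rn7s1* to *Rn7s2* between 0.836 and 0.849. Since the sequences are the same, the rows are not separate measurements of 7SL RNA.

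*Rmrp* was at 2119, 3141 and 2528 CPM in the KO NPCs and at 2831, 4413 and 2498 CPM in the WT NPCs. WT NPC 2 was well above the rest, and the groups overlapped. *Rpph1* was at 1987, 2510.1 and 2605 CPM in the KO NPCs and at 2519.6, 2957 and 1875 CPM in the WT NPCs. As with *Rn7sk*, the lowest and the highest library were WT NPC 3 and WT NPC 2.

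*Rny1* was at 51.4, 70.8 and 110.2 CPM in the KO NPCs and at 69.0, 111.3 and 102.3 CPM in the WT NPCs. *Rny3* was at 56.1, 73.2 and 122.0 CPM in the KO NPCs and at 59.7, 109.96 and 66.0 CPM in the WT NPCs. Both Y RNAs were lowest in KO NPC 1, and *Rny3* was highest in KO NPC 3. *Vaultrc5* had 21, 5 and 10 counts in the KO NPCs and 17, 23 and 9 counts in the WT NPCs. At this depth KO NPC 2 had 0.0673 CPM with an exact 95% interval, for counting error only, of 0.0219 to 0.157 CPM.

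The level per kilobase of the row allows for the length of the row and for nothing else. On it *Rn7sk* was the highest single row, with 42476 ± 7025 CPM per kb in the KO NPCs and 36429 ± 11488 in the WT NPCs (SD, n = 3 each). *Rmrp* was at 9238 ± 1832 in the KO NPCs and 11556 ± 3641 in the WT NPCs. *Rn7s1* was at 9089 ± 1520.5 in the KO NPCs and 10021 ± 205 in the WT NPCs. The 7SL RNA is split over the near-identical *Rn7s1* and *Rn7s2* rows, so neither row gives its whole level and no order between 7SL RNA and *Rmrp* can be read. The Y RNAs were far lower, with 692 ± 268 for *Rny1* and 821 ± 335 for *Rny3* in the KO NPCs, and 841 ± 199 and 770.4 ± 268 in the WT NPCs. The length of the *Rpph1* row is that of the merged locus, so its level per length cannot be set beside the others. The *Rn7s1* and *Rn7s2* rows are merged too, with lengths of 344 and 413 bases. Whether the Y RNAs, barely longer than 1 read, were recovered as fully as the longer RNAs was not tested.

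**Figure D2:**
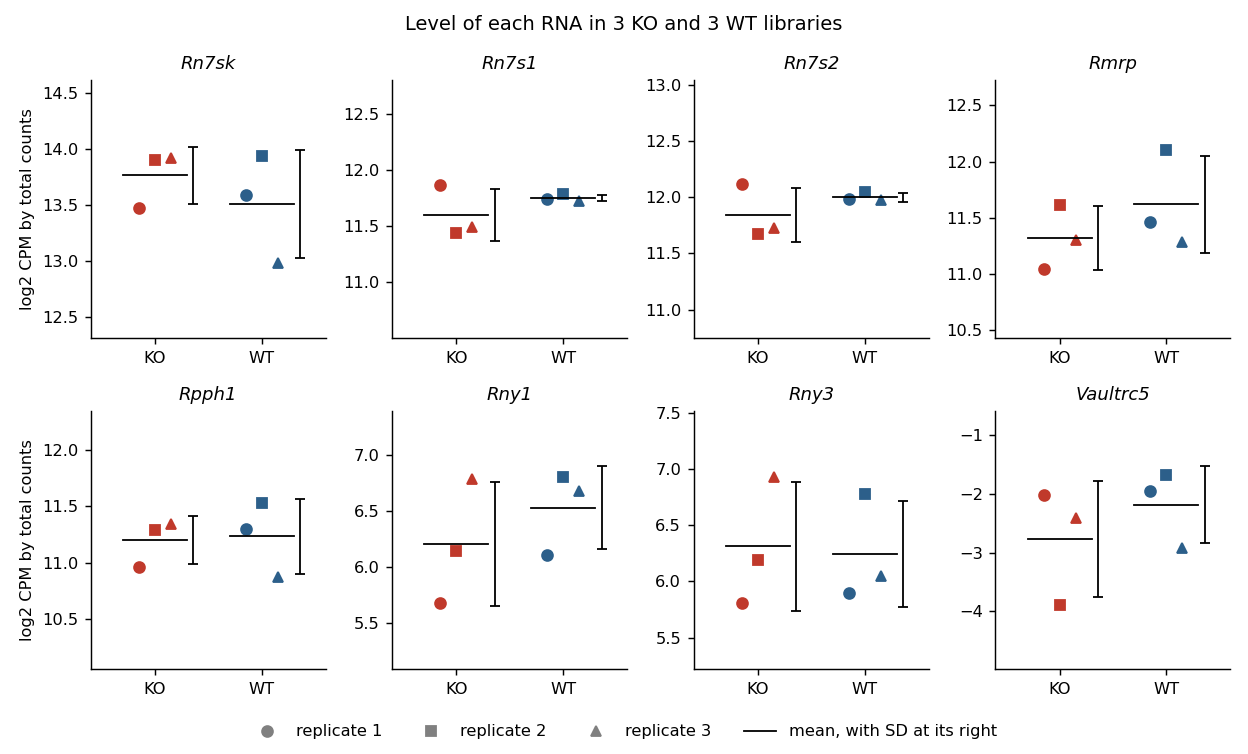
Level of each of the 8 RNAs as log2 CPM by total counts (y axis) in KO and WT libraries (x axis), with 1 point per library, its shape giving the replicate number, a line for the mean and a bar for the SD. The KO and WT points overlap for all 8, the 3 WT points of *Rn7s1* and *Rn7s2* lie close together, and *Vaultrc5* is drawn on a taller scale than the rest.

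None of the 8 RNAs passed an adjusted p under 0.05 in the test of KO against WT across all genes by edgeR's quasi-likelihood test, where 0.0% of all genes did, and none passed at an unadjusted p under 0.05, where 1.61% of all genes did (308 of 19073). With edgeR's likelihood ratio test 17 genes passed (0.0891%) and with DESeq2 35 (0.184%), with none of the 8 among them. The deleted gene *Armc5* did not pass the adjusted threshold in the quasi-likelihood test either, although it did in the likelihood ratio test. The lack of a call for the 8 RNAs therefore does not exclude a change in them. The log2 fold changes, KO over WT, ranged between -0.55 (standard error 0.64) for *Vaultrc5* and 0.15 (standard error 0.31) for *Rn7sk*. *Rmrp* was at -0.38 (standard error 0.30), *Rny1* at -0.36 (standard error 0.29), and *Rn7s1* and *Rn7s2* at -0.19 and -0.20 (standard error 0.21 for both). *Rpph1* was at -0.12 (standard error 0.23) and *Rny3* at 0.01 (standard error 0.33). The adjusted p was 0.983 for 7 of the 8 and 0.999 for *Rny3* by the quasi-likelihood test. Of the 8 fold changes 2 were above 0 and 6 below, with a median of -0.20, beside a median of -0.01 over all genes tested.

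A ratio to *Rn7sk* within a library does not depend on how the library is scaled. *Rmrp* was at 18.6%, 20.5% and 16.3% of the *Rn7sk* count in the KO NPCs and at 22.9%, 28.1% and 30.8% in the WT NPCs. All 3 KO values lay below all 3 WT values. The log2 ratio was -2.44 ± 0.17 in the KO NPCs and -1.89 ± 0.22 in the WT NPCs (SD, n = 3 each), a difference of -0.56 with p = 0.1, the smallest that the two-sided exact permutation test can give here, and 0.35 after Benjamini-Hochberg adjustment over 7 ratios. *Rpph1* was at 17.5%, 16.4% and 16.8% of the *Rn7sk* count in the KO NPCs and at 20.4%, 18.8% and 23.1% in the WT NPCs. The KO values again lay below the WT values, with a log2 difference of -0.29 and the same exact permutation p = 0.1 (adjusted 0.35). Of all 19073 genes tested, 1.89% had KO ratios to *Rn7sk* that all lay below the WT ratios and 0.729% had KO ratios that all lay above. *Rmrp* and *Rpph1* are 2 of 7 RNAs, and the ratio of every RNA in a library carries the same *Rn7sk* count.

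*Rn7s1* was at 32.8%, 18.1% and 18.5% of the *Rn7sk* count in the KO NPCs and at 27.8%, 22.4% and 41.7% in the WT NPCs. KO NPC 2 and 3 were below every WT library and KO NPC 1 was above 2 of them. The log2 difference was -0.41 for *Rn7s1* and -0.42 for *Rn7s2* (exact permutation p = 0.3 for both). *Rny1* was lower in the KO library of 3 of 3 pairs of equal number, with a log2 difference of -0.58 (exact permutation p = 0.3). Of the 7 ratios those of *Rmrp*, *Rpph1* and *Rny1* were lower in all 3 pairs, as were 11.5% of all genes tested. *Rny3* differed by -0.19 (exact permutation p = 0.6) and *Vaultrc5* by -0.85 (exact permutation p = 0.4). All 7 differences were below 0, those of *Rn7s1* and *Rn7s2* not being separate measurements. With the *Rn7sk* count as library size the median log2 fold change of all genes tested was also below 0, at -0.26. When KO NPC 1 was left out, the groups did not overlap for 5 of the 7 ratios, all lower in the KO NPCs. Of all genes tested 15.2% then had groups that did not overlap, and 1.73% had KO ratios that all lay above. The 5 were *Rn7s1*, *Rn7s2*, *Rmrp*, *Rpph1* and *Vaultrc5*. Of these, *Rn7s1* and *Rn7s2* share their sequence, and *Vaultrc5* had only 5 and 10 counts in KO NPC 2 and 3. With WT NPC 3 left out the difference of *Rn7s1* was -0.17 and that of *Rny1* was -0.25, while *Rmrp* was still at -0.46 and *Rpph1* at -0.22.

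**Figure D3:**
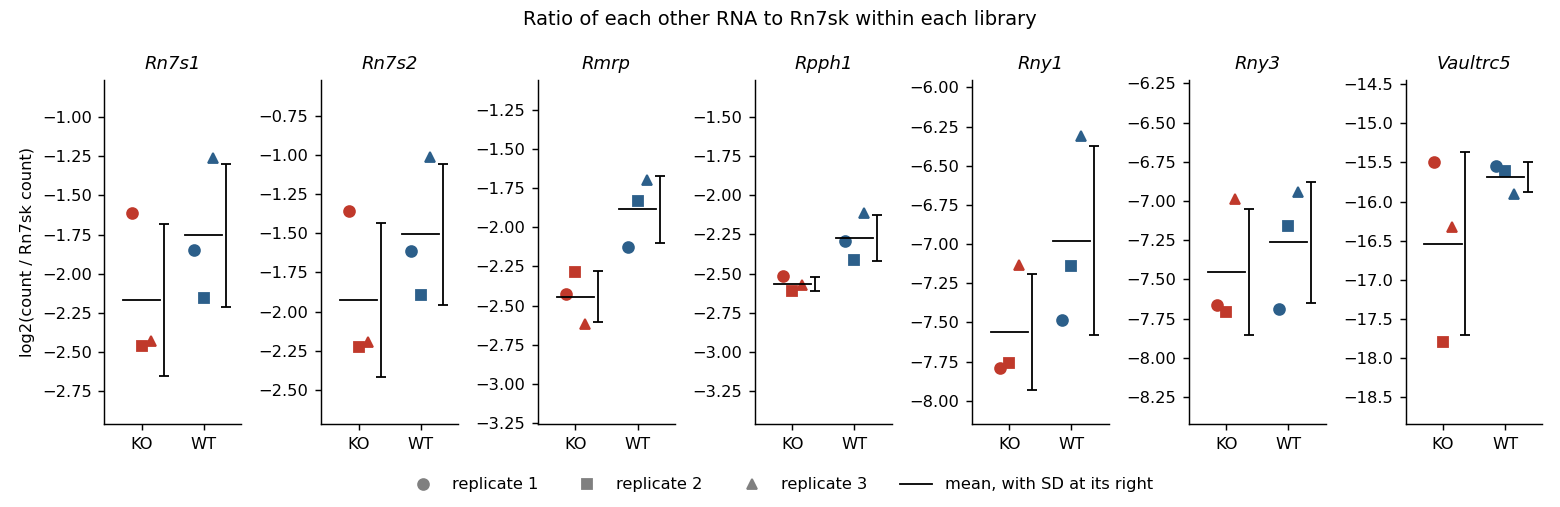
Log2 ratio of the count of each other RNA to that of *Rn7sk* in the same library (y axis), for KO and WT libraries (x axis), with 1 point per library, a line for the mean and a bar for the SD. The KO points lie below all WT points for *Rmrp* and *Rpph1* and overlap with them for the other 5.

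Over the 6 libraries Pearson's r with *Rn7sk* passed an adjusted exact permutation p under 0.05 for 1 of the 7 other RNAs, the merged *Rpph1* row. For the rest, 6 libraries do not decide whether they varied together with *Rn7sk*. *Rpph1* came closest, with Pearson's r = 0.89 between the log2 CPM values (exact permutation p = 0.0042, 0.0292 after adjustment over 7 relations) and Spearman's rho = 0.94 (exact permutation p = 0.0167, adjusted 0.117). After the 2 libraries farthest from the median of *Rn7sk*, WT NPC 3 and KO NPC 1, were left out, r was 0.49 over 4 libraries (exact permutation p = 0.375). The smallest exact permutation p over 4 libraries is 0.0417, or 0.292 adjusted over 7 relations. This setting therefore cannot decide whether the relation holds. The r of *Rpph1* was 0.82 without WT NPC 3 alone and 0.93 without KO NPC 1 alone. On TMM-scaled library sizes r was 0.87 (exact permutation p = 0.0194, adjusted 0.136). With the genotype means removed r was 0.995, and *Rn7sk* and *Rpph1* differed in the same direction in 3 of 3 pairs. The same held in 3 of 3 pairs for *Rmrp*, *Rny1*, *Rny3* and *Vaultrc5*, and in 1 for *Rn7s1* and *Rn7s2*. The share of all genes for which it held was not computed, so these counts of pairs cannot show that the RNAs varied together. In numbers 1 and 2 *Rn7sk* differed by only -0.12 and -0.04, and *Vaultrc5* had few counts. With the genotype means removed r was 0.87 for *Rmrp*, 0.66 for *Rny3*, 0.33 for *Rny1* and 0.24 for *Vaultrc5*. It was -0.36 for *Rn7s1* and -0.34 for *Rn7s2*.

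*Rny3* had r = 0.64 (exact permutation p = 0.186) and rho = 0.77 (exact permutation p = 0.103), and *Rmrp* had r = 0.55 (exact permutation p = 0.267) and rho = 0.77 (exact permutation p = 0.103). *Rny1* had r = 0.13 (exact permutation p = 0.783) and rho = 0.66 (exact permutation p = 0.175). A single library set the r of *Rny1*: without WT NPC 3, where *Rn7sk* was lowest but *Rny1* was above 3 of the other libraries, it was 0.85 over 5 libraries. *Rn7s1* and *Rn7s2* went the other way, with r = -0.47 and -0.46 (exact permutation p = 0.328 and 0.343) and rho = -0.14 for both (exact permutation p = 0.803). *Vaultrc5* had r = 0.05 (exact permutation p = 0.896) and rho = 0.37 (exact permutation p = 0.497). After adjustment over the 7 relations the p of r was between 0.480 and 0.896 for these 6 RNAs, and that of rho between 0.240 and 0.803. After the same 2 libraries were left out, r was 0.79 for *Rny3*, 0.36 for *Rmrp*, 0.67 for *Rny1*, -0.41 for *Rn7s1*, -0.37 for *Rn7s2* and -0.27 for *Vaultrc5*. Genes at large had a median r of -0.07 with *Rn7sk* (9864 genes with a mean of at least 10 CPM). These values share the total of each library, so they are not free of each other.

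**Figure D4:**
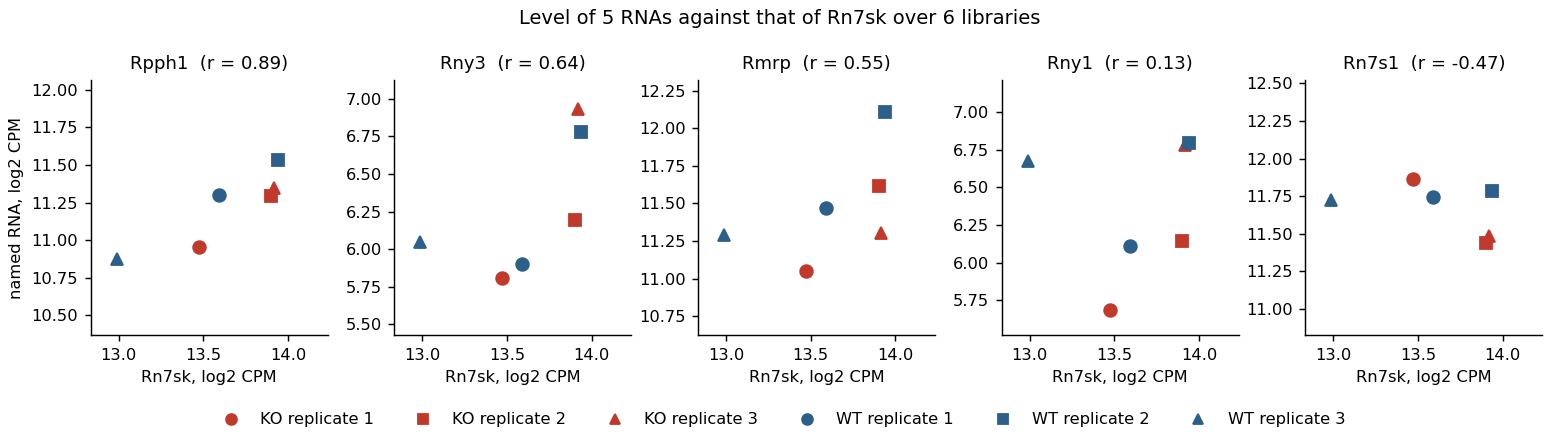
Level of 5 RNAs (y axis, log2 CPM by total counts) against that of *Rn7sk* (x axis, log2 CPM), with 1 point for each of 3 KO (red) and 3 WT (blue) libraries, its shape giving the replicate number, and Pearson's r above each panel. *Rpph1* climbs with *Rn7sk* (r = 0.89), WT NPC 3 at the far left is off the line of the others for *Rny1*, and *Rn7s1* runs the other way (r = -0.47).

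All 28 pairs of the 8 RNAs were then described by the SD of their log2 ratio over the 6 libraries. The pair with the steadiest ratio was *Rn7s1* and *Rn7s2* (SD 0.01), which share their sequence. *Rn7sk* and *Rpph1* came next (SD 0.19), then *Rmrp* and *Rpph1* (SD 0.23), the RNAs of RNase MRP and RNase P, and then the Y RNAs *Rny1* and *Rny3* (SD 0.29). *Rn7sk* against *Rn7s1* had an SD of 0.48, and *Rn7sk* against *Rny1* one of 0.55. Leaving *Vaultrc5* aside for its few counts, the mean SD of the log2 ratios to the other 6 RNAs was smallest for *Rpph1* (0.31) and was 0.40 for *Rn7sk*.

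Over all 6 libraries *Rn7sk* was not among the steadier RNAs by total counts. WT NPC 3 stood apart, with a log2 CPM of *Rn7sk* of 12.99 against 13.47 to 13.94 in the rest. The SD without this library was not computed. The SD of its log2 CPM over the 6 libraries was 0.37, at percentile 64.0 of the 9871 genes with a mean of at least 10 CPM, whose median SD was 0.29. *Rn7s1* had an SD of 0.17 (percentile 24.6) and *Rpph1* one of 0.25 (percentile 43.2). *Rmrp* was at 0.37, *Rny1* at 0.46 and *Rny3* at 0.47. From the lowest to the highest library *Rn7sk* spanned 1.93-fold, *Rmrp* 2.08-fold and *Rn7s1* 1.34-fold.

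The genes most like *Rn7sk* were first of all the rows that hold its sequence. *Gm26315* and *Gm24447* had r = 0.998 each with *Rn7sk* over the 6 libraries, the highest of 9864 genes. Next came *Clk3*, a kinase of splicing factors (r = 0.994), *Arrdc4*, an arrestin-like gene (r = 0.986), and *Eya1*, a transcription coactivator and phosphatase (r = 0.980). *Clk3* was at 52.5, 56.2 and 55.6 CPM by total counts in the KO NPCs and at 52.9, 56.2 and 47.6 CPM in the WT NPCs. *Arrdc4* was at 16.5, 28.3 and 34.2 CPM in the KO NPCs and at 23.2, 31.9 and 8.19 CPM in the WT NPCs. Like *Rn7sk*, all 3 were lowest in WT NPC 3.

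What the choice of the scaling RNA does to all other genes was then described by the median log2 fold change, KO over WT, of the 19073 genes. It was -0.01 with TMM and 0.05 with total counts, and -0.26 when the *Rn7sk* count was used as the library size. With *Rpph1* it was 0.06 and with *Rny3* -0.01. With *Rn7s1* it was 0.21, with *Rn7s2* 0.22, with *Rmrp* 0.32, with *Rny1* 0.40 and with *Vaultrc5* 0.75. The geometric mean of all 8 gave 0.18. *Rn7sk* thus gave a lower median than each of the other 7 RNAs. This order restates the differences of the RNAs themselves between KO and WT NPCs, of which that of *Rn7sk* was the highest (0.26 by log2 CPM). It is not a further result. With the *Rn7sk* count as the library size edgeR's quasi-likelihood test called 4 genes, 1 higher and 3 lower in the KO NPCs (0.021% of those tested), *Armc5* among them. Leaving out WT NPC 3 turned the median on the *Rn7sk* scale to 0.08 and left 0 genes called by the quasi-likelihood test (239 at an unadjusted p under 0.05). Without WT NPC 2 the median was -0.46, with 3 genes called. Without KO NPC 1 the same test called 159 genes, and without KO NPC 3 it called 59. It called 13 genes without KO NPC 2 and 15 without WT NPC 1. With each library left out the genes were filtered anew, which left 19631 to 20529 genes. On the *Rn7sk* scale a block for the replicate number left 0 genes called (265 at an unadjusted p under 0.05, and 8 by the likelihood ratio test without the block).

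**Figure D5:**
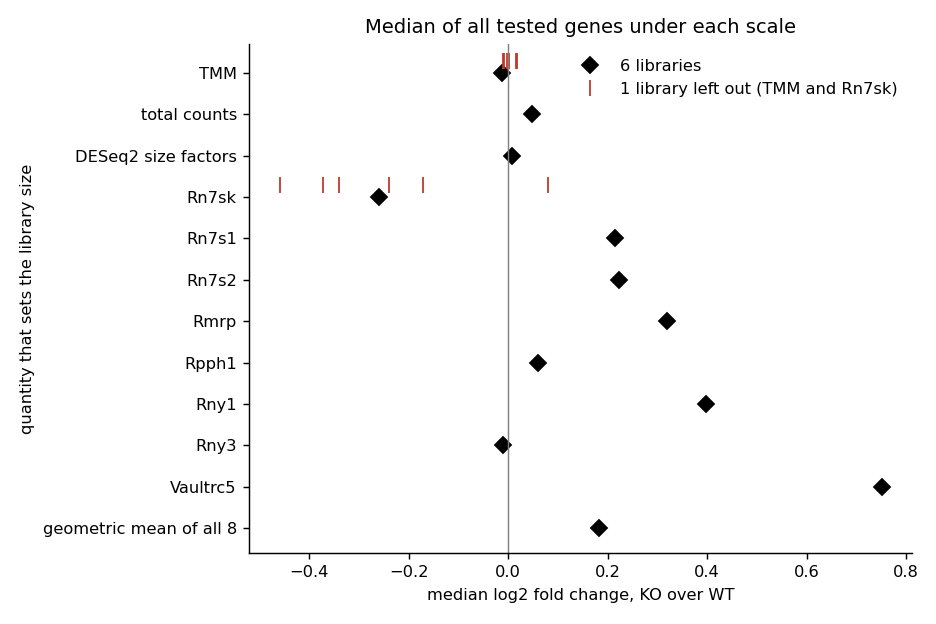
Median log2 fold change, KO over WT, of all genes tested (x axis) under each quantity used as the library size (y axis), as black diamonds for all 6 libraries (19073 genes) and red ticks for each library left out in turn, drawn for TMM and *Rn7sk*. The genes were filtered anew for each tick, which left 19631 to 20529 genes. The *Rn7sk* diamond lies at -0.26, left of the others, and its ticks run between -0.46 and 0.08, whereas the TMM ticks stay close to 0.

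The study's methods describe a milder use of *Rn7sk*, in which the log2 CPM of *Rn7sk* in a library is divided by its mean over the libraries. That quotient was 0.988, 1.0196 and 1.021 in the KO NPCs and 0.997, 1.022 and 0.953 in the WT NPCs. The level of *Rn7sk* itself, relative to its geometric mean, was 0.894, 1.203 and 1.217 in the KO NPCs and 0.969, 1.235 and 0.638 in the WT NPCs. Used as a scaling factor on the total counts, the quotient gave a median log2 fold change of 0.02 and 0 genes called by the quasi-likelihood test (294 at an unadjusted p under 0.05). The study itself used edgeR's likelihood ratio test in a paired comparison of transcripts and did report changed transcripts. That test and the pairing were not run with the quotient here, so this 0 cannot be set beside the study's count.

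The other genes of these pathways were taken from fixed lists and tested in the same fit by edgeR's quasi-likelihood test, and in each list 0 genes passed an adjusted p under 0.05, also with the likelihood ratio test and DESeq2. Of 14 further Pol III transcripts listed 4 could be tested, and their fold changes were all below 0 (median -0.30). *Rn7s6*, the further 7SL gene, had 21401, 14570 and 12623 counts in the KO NPCs and 14999, 18936 and 17606 in the WT NPCs. *Rprl3*, a relative of the RNase P RNA, had 5019, 5558 and 3979 counts in the KO NPCs and 4831, 7322 and 3799 in the WT NPCs. *Bc1*, a Pol III RNA of neurons, had between 18 and 71 counts in the KO NPCs and between 39 and 60 in the WT NPCs, and *Rprl2* had between 39 and 75 in the KO NPCs and between 44 and 120 in the WT NPCs.

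Among 11 Pol III subunit genes 5 fold changes were above 0 and 6 below, with a median of -0.03. *Polr3g*, the subunit form of early embryonic cells, was at 2.93, 10.8 and 3.49 CPM (TMM-scaled) in the KO NPCs and at 3.33, 3.38 and 3.80 CPM in the WT NPCs, so that KO NPC 2 alone was high. *Polr3c* had a log2 fold change of 0.26, *Polr3k* of 0.35 and *Polr3b* of -0.17. Among 17 genes of Pol III initiation 6 were above 0 and 11 below (median -0.03), *Tbp*, the TATA-binding protein, at -0.27, *Gtf3c2* at 0.22, *Gtf3a*, the factor of 5S rRNA genes, at -0.32 and *Snapc4*, a subunit of the complex that binds the promoters of *Rn7sk* and U6 genes, at -0.21.

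The protein partners were described likewise. Of 7 proteins of the 7SK particle 6 had a fold change above 0 (median 0.02), among them the kinase gene *Cdk9* (0.21) and its cyclins *Ccnt2* (0.22) and *Ccnt1* (0.29). *Larp7*, which encodes the protein that binds the 3′ end of 7SK RNA, was at 43.7, 41.3 and 13.49 CPM in the KO NPCs and at 39.7, 37.3 and 44.0 CPM in the WT NPCs. Of 11 RNase P and MRP protein genes 10 were below 0 (median -0.14), beside 9846 of all 19073 genes tested. Their summed level was 168, 166 and 109 CPM in the KO NPCs and 158, 161 and 179 CPM in the WT NPCs. KO NPC 3 alone was below the WT libraries. *Pop1*, shared by both enzymes, was at 30.7, 25.7 and 16.1 CPM in the KO NPCs and at 26.5, 24.4 and 43.1 CPM in the WT NPCs. *Pop4* had a log2 fold change of -0.27, *Pop5* of -0.30 and *Rpp25* of -0.75, and *Rpp25* had only 11 counts in KO NPC 3. Of 6 signal recognition particle rows 5 were below 0 (median -0.17), with *Srp72* at -0.25, *Srp19* at -0.18, *Srp9* at -0.16 and *Srp54a* at -0.09. The summed level of these 6 rows was also lowest in KO NPC 3, at 338 CPM against 400 to 440 CPM in the rest. Of 5 genes of RO60, La and vault proteins 4 were below 0 (median -0.24), with *Tep1* at -0.89, *Mvp*, the major vault protein, at -0.38, *Parp4* at -0.24 and *Ro60* itself at 0.15. None of these lists held a gene at an unadjusted p under 0.05.

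Small RNAs made by Pol II were taken as a contrast. Of 20 tested, 7 were above 0 and 13 below (median -0.13), and 6 had an unadjusted p under 0.05, beside 1.61% of all genes. *Rnu1b1*, a gene of the U1 spliceosomal RNA, had 79, 108 and 99 counts in the KO NPCs and 6, 32 and 10 in the WT NPCs. *Rnu1b2* had 77, 106 and 96 counts in the KO NPCs and 6, 34 and 10 in the WT NPCs. All KO counts were above all WT counts, with log2 fold changes of 2.56 and 2.47 and an adjusted p of 0.983 by edgeR's quasi-likelihood test (adjusted p = 0.253 and 0.406 by its likelihood ratio test). Further U1 rows did not share this size or direction. *Rnu1b6* was at 1.03. *Rnu1a1*, with 182, 177 and 109 counts in the KO NPCs and 175, 341 and 122 in the WT NPCs, was at -0.52. *Rnu3b3*, of the U3 small nucleolar RNA, had 1947, 1866 and 2938 counts in the KO NPCs and 3033, 4503 and 10114 in the WT NPCs, and *Rnu3b1* had 1461, 1401 and 2216 in the KO NPCs and 2275, 3382 and 7629 in the WT NPCs. The *Rnu3b* rows were highest in WT NPC 3, the library in which *Rn7sk* was lowest. *Rnu3a*, another U3 row, had 1418, 898 and 3512 counts in the KO NPCs and 538, 531 and 2627 in the WT NPCs, and was highest in KO NPC 3 (log2 fold change 0.71). The counts of *Rnu1b1* and *Rnu1b2*, and of the *Rnu3b* genes, are so alike in every library that near-identical copies may share reads, so they are not separate measurements.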

How the data were processed

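Total RNA of 6 NPC cultures was depleted of rRNA from 250 ng and sequenced in paired-end mode with 100 cycles a read. The authors deposited whole-number counts per gene locus of a StringTie assembly, neither scaled nor filtered, and log2 CPM values, plain and relative to *Rn7sk*, with group means. The submitters' processing notes name Trimmomatic, STAR, Picard, StringTie, edgeR and GRCm38. Versions, the assignment of reads to loci and its use of strand are not given in the sources used here. The plain log2 CPM columns were only checked against the counts, within 0.0287 at loci of at least 100 counts. The columns relative to *Rn7sk* and the group means were neither checked nor used.

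Counts at 53103 named loci were summed per reference gene, and 6596 unnamed loci (1.31% to 4.89% of a library) were left out. Genes were filtered with filterByExpr (minimum count 10, minimum total 15), given TMM factors and compared between KO and WT NPCs by the quasi-likelihood test of edgeR with Benjamini-Hochberg adjustment (threshold 0.05). Single values were compared by two-sided exact permutation tests over libraries (20 arrangements, or 720 for correlations). CPM by total counts, ratios to *Rn7sk* and correlations used no prior count. Intervals cover counting error only.

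Groups and replicate numbers came from the sample titles. The study describes pairs of biological replicates and a paired comparison, without saying which samples form a pair. Deviations from the group means correlated at 0.41, 0.17 and 0.20 between equal numbers and at most at 0.05 between others (prior count 2). Equal numbers were therefore taken as the pairs, by the data and not by a label. The main quasi-likelihood test and the permutation tests did not use the pairing. It entered as the replicate block and as differences within numbers.

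Sequences were read from GENCODE vM21 transcripts (GRCm38), and shared runs were searched on the annotated strand with a minimum of 100 bases. The primers were read from the study's primer table. Named genes were the 8 RNAs, *Armc5*, up to 4 genes per list with the smallest unadjusted p, and the 5 genes with the largest r with *Rn7sk*. *Gm26035*, *Rnu3a*, *Rnu1a1* and *Rnu1b6* were named after their values were seen. The RNAs and lists were chosen with earlier results of these data known. Further lists of neural progenitor, neuron, oligodendrocyte lineage and microglia genes, and of 5S rRNA genes chosen after seeing the table, had 0 genes called by the quasi-likelihood test (0 at an unadjusted p under 0.05, 0 by the likelihood ratio test and 0 by DESeq2). The fits were tested on simulated counts. R 4.3.3, edgeR 4.0.16, DESeq2 1.42.0, Python 3.11.15 and scipy 1.17.1 were used.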

Additional observations from a re-analysis of the deposited data

How the results depend on the processing

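The number of genes called between KO and WT NPCs, 0 in the quasi-likelihood test with TMM, was also 0 with DESeq2 size factors, total counts, the replicate block and each library left out in turn (198 to 978 at an unadjusted p under 0.05). It was 4 with the *Rn7sk* count as library size, 3 with the geometric mean of the 8 RNAs, with or without *Vaultrc5*, and 5 with no filter. It was 17 with the likelihood ratio test, 35 with DESeq2, 38 with the replicate block and the likelihood ratio test, 8 with the *Rn7sk* count and the likelihood ratio test, and 159, 13 and 59 without KO NPC 1, 2 and 3 and 15, 3 and 0 without WT NPC 1, 2 and 3 with the *Rn7sk* count. The *Rn7sk* count with another test, block or library left out, its log2 quotient, the geometric mean without *Vaultrc5*, the sum with the genes sharing its sequence, and each library left out of the correlations were chosen after seeing the data.

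None of the 8 RNAs was called in 240 values over all edgeR and DESeq2 alternatives, those with each other RNA as library size included and an RNA on its own scale left out (smallest adjusted p 0.734), and the replicate block changed none of these calls: with it *Rn7sk* was at 0.20 and *Rmrp* at -0.36 (adjusted p = 0.968 by edgeR for both). Without the scales by a single RNA other than *Rn7sk*, and without its scale with a library left out, 136 of 149 alternative fold changes kept their direction and 13 did not. On the scales by another single RNA 15 of 49 did not, with values between -0.42 and 1.16. With the geometric mean of the 8 as library size *Rn7s1* was at 0.0086, *Rn7s2* at 0.0033 and *Rpph1* at 0.13, and without *Vaultrc5* in that mean *Rpph1* was at 0.051. *Rny3* was at -0.18 with the *Rn7sk* count under either test, at -0.19 with the block added and at -0.045 with no filter. With each library left out in turn, *Rny3* was at -0.28 without KO NPC 3, at -0.14 without WT NPC 1 and at -0.13 without WT NPC 3, *Rpph1* at 0.069 without WT NPC 2, and *Rn7sk* at -0.083 without WT NPC 3. The ranges were -0.28 to 0.36 for *Rny3*, -0.30 to 0.069 for *Rpph1* and -0.083 to 0.42 for *Rn7sk*.

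The difference of *Rn7sk* by log2 CPM was 0.20 with TMM, 0.21 with DESeq2 size factors, 0.26 as the mean within replicate numbers (the paired value), and between -1.02e-04 and 0.48 with each library left out. The number of ratios to *Rn7sk* without overlap, 2 in all libraries, lay between 2 and 5 with a library left out. It was 5 without KO NPC 1, both *Rn7s1* and *Rn7s2* and the low *Vaultrc5* included, where 15.2% of all genes tested did not overlap. When the pairing was used, 3 of the 7 were lower in all pairs, against 11.5% of all genes tested. The number of relations with *Rn7sk* past an adjusted p of 0.05, 1 in all libraries, was 0 with TMM. It was also 0 without the 2 farthest libraries and with any library left out, where a single relation cannot pass: the smallest exact permutation p over 5 libraries is 0.00833, or 0.0583 adjusted over 7 relations. With each library left out r of *Rpph1* lay between 0.82 and 0.93. Reversed r values were -0.037 without KO NPC 1, -0.043 without KO NPC 3 and -0.067 without WT NPC 2 for *Rny1* (highest 0.85), and -0.27 without the 2 farthest libraries, -0.18 without WT NPC 2 and -0.35 without WT NPC 3 for *Vaultrc5* (highest 0.70).

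The median log2 fold change of all genes, -0.01 with TMM, was 0.0069 with DESeq2 size factors, 0.047 with total counts, -0.030 with the replicate block and 0.017 with the log2 quotient of *Rn7sk*. By RNA it was -0.26 with *Rn7sk*, 0.21 with *Rn7s1*, 0.22 with *Rn7s2*, 0.32 with *Rmrp*, 0.060 with *Rpph1*, 0.40 with *Rny1* and 0.75 with *Vaultrc5*, and 0.18 with the geometric mean of the 8 (0.13 without *Vaultrc5*). With each library left out it lay between -0.011 and 0.018 with TMM, and with *Rn7sk* it was -0.37, -0.17 and -0.24 without KO NPC 1, 2 and 3 and -0.34, -0.46 and 0.080 without WT NPC 1, 2 and 3. The causes were not tested. The 3 libraries a group, rows that share reads, the merged *Rpph1* row and the few *Vaultrc5* counts limit these values.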
